A study of Mus musculus with 34 samples.

Results

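The genes of the lysosomal proton pump, its proteases and its membrane glycoproteins were described in mouse splenic B cells before and after activation. They were chosen by a naming rule, with earlier results of these data known. It took all rows of the RNA table whose symbol begins with Atp6v, consists of Cts and 1 letter, or begins with Lamp and a digit. This gave 45 of 23812 rows, made up of 23 V-ATPase, 18 cathepsin and 4 LAMP rows. Of these 28 reached 1 or more in 2 or more of the 4 RNA samples and were tested, 9 were listed at 0 in every sample, and 8 had low values under that filter.

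The cells were splenic B cells of C56BL/6J mice (the strain as the labels spell it) aged 6 to 8 weeks, taken as the CD43-negative fraction by magnetic selection, and no allele or transgene is named. Activated cells had been kept for 3 days with lipopolysaccharide (LPS, a bacterial product sensed by Toll-like receptor 4) at 10 µg per ml, and resting cells were the comparison, with 2 RNA samples in each group. In the labels the culture protocol of resting samples is worded as for activated ones, so their handling is known only from titles, source names and the design text. Peaks and chromatin contacts used here came from activated cells alone. Nothing in the labels ties replicates to separate animals or cultures, and the spread behind each p-value may therefore be technical.

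The V-ATPase pumps protons into lysosomes and endosomes: its V1 sector in the cytosol hydrolyses ATP, and its V0 sector in the membrane carries the protons. Several subunits exist as isoforms that different tissues or organelles use. Cathepsins are the proteases that work in the resulting acid, and in B cells they cut antigens and the invariant chain that accompanies MHC class II molecules. LAMP proteins are heavily glycosylated and line the inner face of the lysosomal membrane. The transcription factor TFEB and its relatives switch on many lysosomal genes through promoter elements built around the E-box CACGTG.

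Promoters are shown for 4 members because that element is spelled out in them. Among them the RNA of Atp6v1a rose, that of Ctsa fell, and Ctsd and Lamp1 were not called, as given below. RefSeq promoters (GRCm38.p6, 250 bases before to 50 bases after a gene start) were matched for 34 members, 20 of them tested. The extended element TCACGTGA, searched on both strands and containing CACGTG, was found in 5 of these 20 genes (25%), against 2.5% of 8118 tested genes with a promoter. The genes were Atp6v1a, Atp6v0d1, Atp6v0e, Ctsa and Ctsd. CACGTG alone was found in 8 of the 20 (40%), against 12.4% of tested genes, and added Atp6v0b, Ctsl and Lamp1. Capitals mark CACGTG or, where its flanks allow, TCACGTGA, and a match describes letters and not a bound site. Atp6v1a (chr16:44139210-44139509, minus strand) held TCACGTGA with CACGTG beginning at position -131 from the start. The second of 2 Ctsa promoters (chr2:164833523-164833822, plus strand) held it at both sides of the start, and the first held no match. Ctsd (chr7:142387778-142388077, minus strand) held TCACGTGA and a separate CACGTG, and Lamp1 (chr8:13158911-13159210, plus strand) held CACGTG 4 times, each before the start.
Atp6v1a: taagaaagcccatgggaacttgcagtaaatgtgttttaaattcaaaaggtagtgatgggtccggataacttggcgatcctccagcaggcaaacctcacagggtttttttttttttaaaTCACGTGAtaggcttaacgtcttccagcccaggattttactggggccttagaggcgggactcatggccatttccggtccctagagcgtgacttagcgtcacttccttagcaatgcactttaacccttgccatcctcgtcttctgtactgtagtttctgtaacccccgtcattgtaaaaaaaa
Ctsa: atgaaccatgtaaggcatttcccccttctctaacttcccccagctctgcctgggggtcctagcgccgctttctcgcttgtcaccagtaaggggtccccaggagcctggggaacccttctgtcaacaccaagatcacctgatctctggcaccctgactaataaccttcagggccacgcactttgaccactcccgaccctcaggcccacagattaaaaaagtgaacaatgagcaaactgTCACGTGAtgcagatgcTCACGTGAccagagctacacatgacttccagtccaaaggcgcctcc
Ctsd: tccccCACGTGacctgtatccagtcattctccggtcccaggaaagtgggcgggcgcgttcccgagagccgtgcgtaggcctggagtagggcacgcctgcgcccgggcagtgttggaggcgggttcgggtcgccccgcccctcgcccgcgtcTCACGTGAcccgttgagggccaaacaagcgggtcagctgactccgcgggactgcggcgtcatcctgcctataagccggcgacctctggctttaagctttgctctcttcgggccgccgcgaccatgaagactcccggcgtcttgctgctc
Lamp1: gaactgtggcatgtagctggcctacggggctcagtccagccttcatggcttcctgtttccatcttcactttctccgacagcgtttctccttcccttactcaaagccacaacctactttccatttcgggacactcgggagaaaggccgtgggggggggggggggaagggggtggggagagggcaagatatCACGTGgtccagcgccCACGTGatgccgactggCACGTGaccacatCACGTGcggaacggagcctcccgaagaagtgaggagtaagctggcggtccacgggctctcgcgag

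Of the 28 tested members 4 rose and 9 fell in activated cells (limma on log2(FPKM + 1), Benjamini-Hochberg adjusted p under 0.05 over 10863 genes), and 15 did not pass. Among the falls, Lamp3 passed the filter through its resting values alone. FPKM, the fragments on a transcript divided by its length and by the mapped total, is a level per length, so levels of different genes may be set beside each other. Rises made up 14.3% of tested members against a background of 28.2% of all tested genes, and falls 32.1% against 26.2%. The 3 families differed in these counts: 3 of 15 V-ATPase genes rose and 1 fell, 7 of 10 cathepsins fell and none rose, and of 3 LAMP genes 1 rose and 1 fell. A count of the samples themselves gave the same picture. Both activated samples lay above both resting samples in 8 members (background 41.5% of tested genes) and below them in 13 (background 39.1%), and the groups overlapped in 7. The median log2 difference, activated minus resting, was -0.15 over members and 0.03 over all tested genes. It was 0.10 for the V-ATPase genes, -1.14 for the cathepsins and -0.29 for the LAMP genes. Whether the families differ from each other was not tested. With quantile normalization the split over members was 2 rises and 13 falls.

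**Figure D1:**
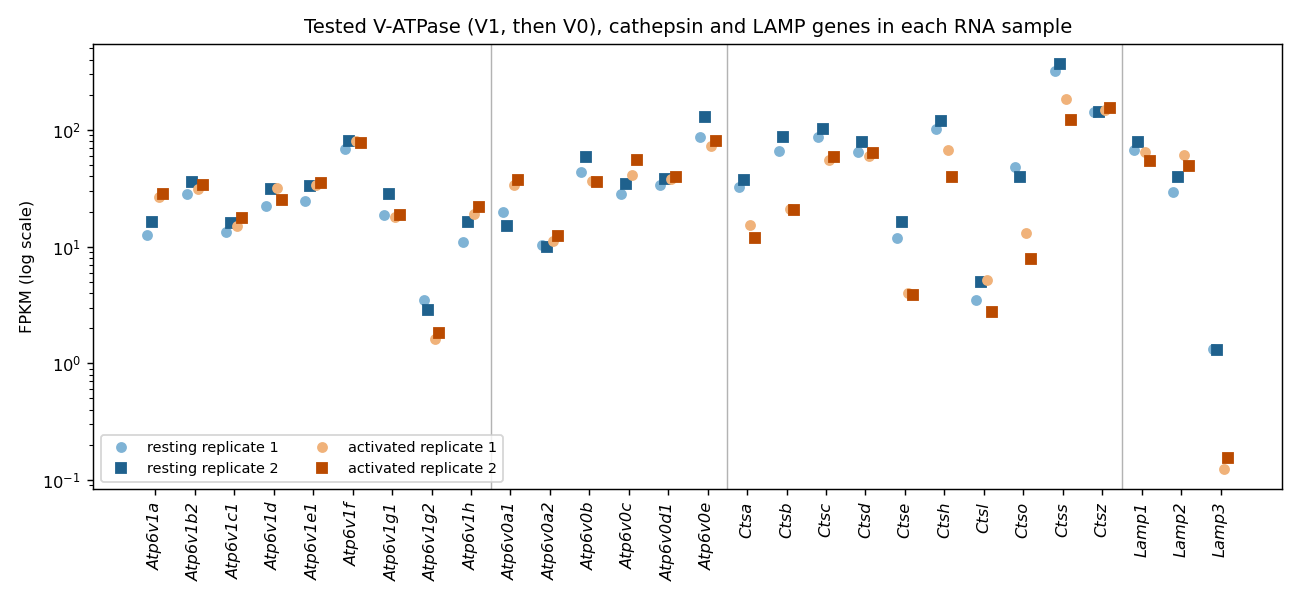
FPKM on a log scale of the 28 tested members, 1 point per RNA sample, with resting samples in blue and activated samples in orange. The points of most V-ATPase genes lie close together, while the orange points of Ctsa, Ctsb, Ctse and Ctso lie well below the blue ones.

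**Figure D2:**
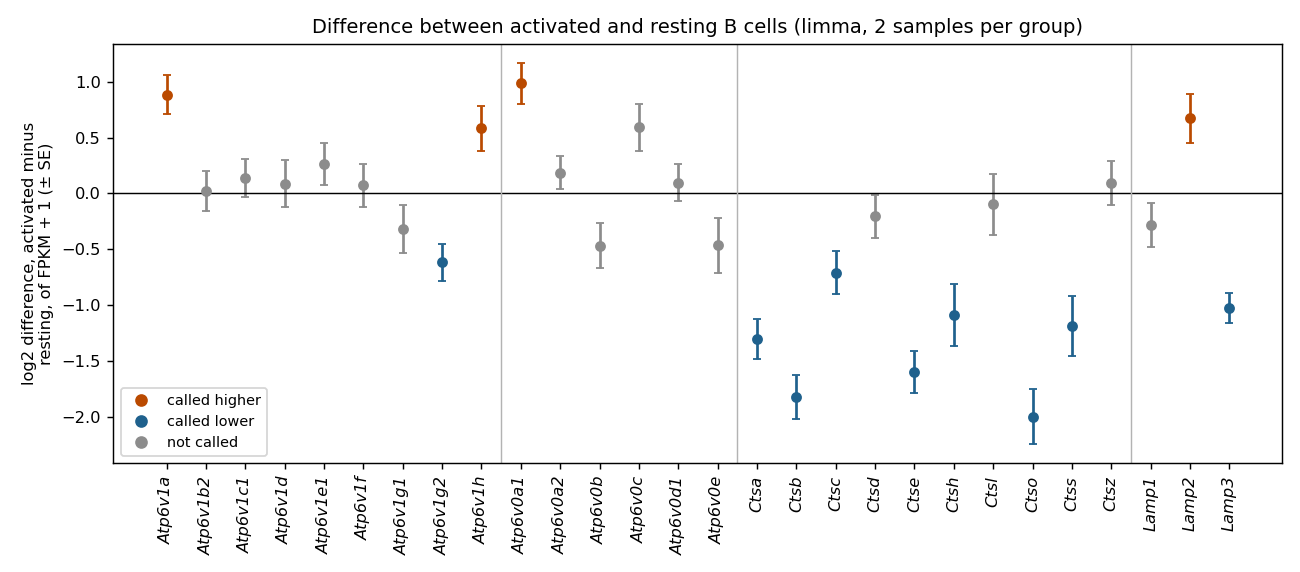
Log2 difference of FPKM + 1, activated minus resting, with its standard error from limma (2 samples per group), coloured by call. Called falls cluster among the cathepsins, where Ctso has the lowest value at -1.998, and the highest value is that of Atp6v0a1 at 0.99.

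The resting samples held RNA of other cells, which bears on every member, and every gene of the other lists below, that such cells express. The summed level of 7 defining macrophage markers (C1qa, C1qb, C1qc, Vcam1, Slc40a1, Csf1r and Emr1) was 438.7 and 483.8 FPKM in resting replicates 1 and 2, and 0.313 and 0.503 FPKM in activated replicates 1 and 2. C1qa and C1qb stood at 0 in the activated samples, and all 7 markers fell. Their activated sums were under 1 FPKM, so each of the 7 passed the filter through its resting values alone. The filter itself thus favoured their falls. Over the whole macrophage list, these 7 included, 17 of 19 tested markers fell and none rose. Of all tested genes 26.2% fell and 28.2% rose, the background for each marker list here. The summed level of the macrophage list ran from 785.9 to 1214 FPKM in resting and from 15.4 to 23.0 FPKM in activated samples. Erythroid markers summed to 1371 and 9090 FPKM in the resting replicates and to 14.3 and 5.17 FPKM in the activated ones. Markers of B cells were present in all 4 samples and summed to 3219, 3590, 2005 and 1426 FPKM, and 5 of 6 fell. Macrophages are rich in lysosomes, and the part of their RNA in the falls below was not tested. In such bulk samples, fewer cells of a type and less RNA per cell cannot be told apart.

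Replicate by replicate, the members were higher in resting replicate 2 than in resting replicate 1 in 23 of 28 cases. Over all tested genes this held for 6719 of 10863. The median log2 difference was 0.25 over members and 0.06 over all tested genes. The sum over all RNA rows was 244602 in resting replicate 1 and 287884 in resting replicate 2. Defining macrophage markers went the same way in 6 of 7 cases (median 0.21). The V-ATPase counts therefore depended on which resting sample was used. Against resting replicate 1, activated replicates 1 and 2 were higher in 11 and 12 of 15 V-ATPase genes. Against resting replicate 2 they were higher in 7 and 8. Cathepsins showed no such dependence: activated replicate 1 was lower in 8 of 10 and activated replicate 2 in 9 of 10, whichever resting sample they were set against. The median cathepsin difference ran from -0.72 (activated 1 minus resting 1) to -1.56 (activated 2 minus resting 2).

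**Figure D3:**
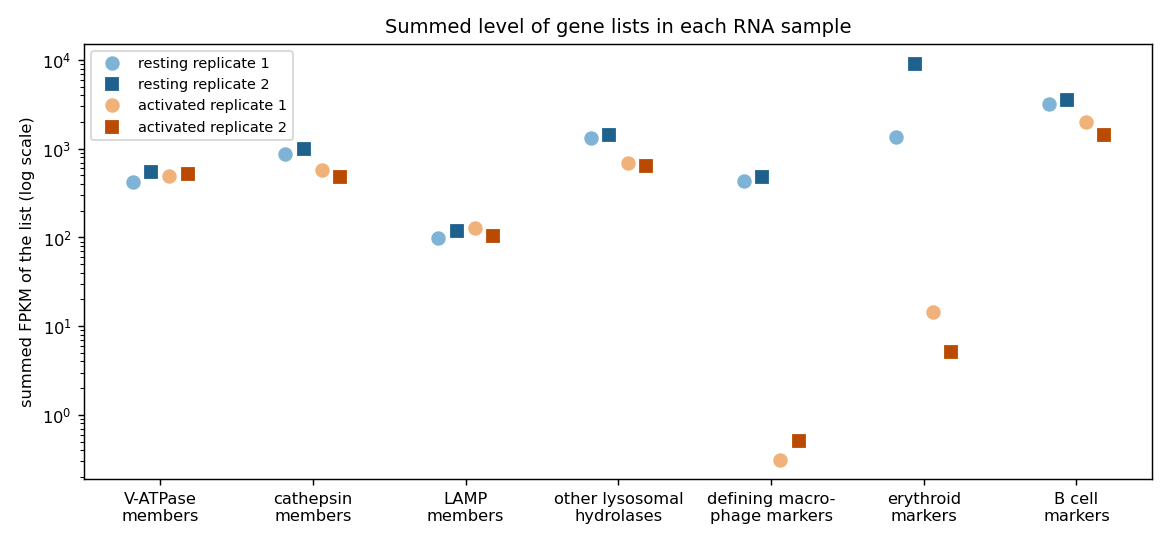
Summed FPKM of gene lists on a log scale, 1 point per RNA sample. The V-ATPase and LAMP points of the 2 groups overlap, the cathepsins and other hydrolases are lower in both activated samples, and the macrophage and erythroid markers drop by orders of magnitude.

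In the V1 sector, 2 of 9 tested genes rose (22.2%, background 28.2%) and 1 fell (11.1%, background 26.2%). Atp6v1a, on chr16:44085516-44139132 (mm9, as are all loci given from the RNA table), encodes the catalytic A subunit that binds ATP. It had 12.7 and 16.4 FPKM in the resting and 26.6 and 28.2 FPKM in the activated samples. The activated samples were the higher ones without overlap, and the log2 difference was 0.88 ± 0.17 (SE; limma adjusted p = 0.00581). Atp6v1h, a regulatory subunit that joins V1 to V0, had 11.1 and 16.1 FPKM in resting and 19.1 and 22.0 FPKM in activated cells (log2 difference 0.58 ± 0.21 SE, limma adjusted p = 0.0488). Atp6v1a was not called without resting replicate 1 (limma adjusted p = 0.0792). Atp6v1h lost its call without any 1 of the 4 samples (limma adjusted p = 0.0601 to 0.300) and in 4 other settings, quantile normalization among them (0.0505).

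The B, C, D, E and F subunits, which build the head and stalks of V1, gave no call. Atp6v1b2, the only B isoform above 0, had 28.3 and 35.8 FPKM in resting and 30.9 and 33.8 FPKM in activated cells. Atp6v1c1, Atp6v1d and Atp6v1f overlapped in the same way, with means of 14.7, 26.96 and 75.0 FPKM in resting and 16.3, 28.5 and 78.7 FPKM in activated cells. Atp6v1e1 was above both resting samples in both activated samples, at 33.7 and 35.2 against 24.8 and 32.9 FPKM (limma adjusted p = 0.274). The partner isoforms Atp6v1b1, Atp6v1c2 and Atp6v1e2 were listed at 0 in every sample, so a single isoform supplied each of the B, C and E subunits.

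The only called fall in V1 was that of a minor isoform of the G subunit, part of the peripheral stalk. Atp6v1g2, an isoform best known from neurons, had 3.49 and 2.86 FPKM in resting and 1.61 and 1.82 FPKM in activated cells. It fell by 0.62 on the log2 scale (SE 0.17, limma adjusted p = 0.0199), and the groups did not overlap. Without resting replicate 1 or 2 it was not called (limma adjusted p = 0.137 and 0.0732). The widely expressed Atp6v1g1 supplied 84.2% and 90.6% of the summed G-subunit FPKM in resting and 91.7% and 91.1% in activated cells, a share that did not overlap either. It had 18.6 and 28.4 FPKM in resting and 17.8 and 18.7 FPKM in activated cells, with a limma adjusted p of 0.244. Within 2 kb of Atp6v1g2 lies Nfkbil1, and no strand is given for the RNA values, so reads of close neighbours cannot be told apart.

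In the V0 sector, 1 of 6 tested genes rose (16.7%, background 28.2%) and none fell (background 26.2%). Atp6v0a1 (chr11:100870765-100925031) encodes a form of the large a subunit, which anchors the pump and helps to decide the organelle it sits in. Its values were 19.7 and 15.1 FPKM in resting and 33.5 and 37.0 FPKM in activated cells. The log2 difference was 0.99 ± 0.18 (SE), with a limma adjusted p of 0.00443. Without resting replicate 2 the limma adjusted p was 0.0671, and the difference was then 0.81. Of the genes that rose, Atp6v0a1 was the one with a lower value in resting replicate 2 than in replicate 1.

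Isoform shares of the a subunit did not overlap between the groups for Atp6v0a1 and Tcirg1, and no test of a share was run. The a isoforms in these cells were Atp6v0a1, Atp6v0a2 and Tcirg1, the a3 form of osteoclasts and lysosomes, which the naming rule leaves out. Atp6v0a1 made up 38.7% and 30.3% of the summed a-subunit FPKM in resting and 53.6% and 59.6% in activated cells. Tcirg1 made up 40.9% and 49.7% in resting and 28.5% and 20.6% in activated cells, while Atp6v0a2 stayed between 17.9% and 20.4%. Tcirg1 itself had 20.8 and 24.8 FPKM in resting and 17.8 and 12.8 FPKM in activated cells, with a limma adjusted p of 0.0515. Macrophages also express Tcirg1, and their share in its resting level was not tested. The kidney isoform Atp6v0a4 was listed at 0 throughout.

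**Figure D4:**
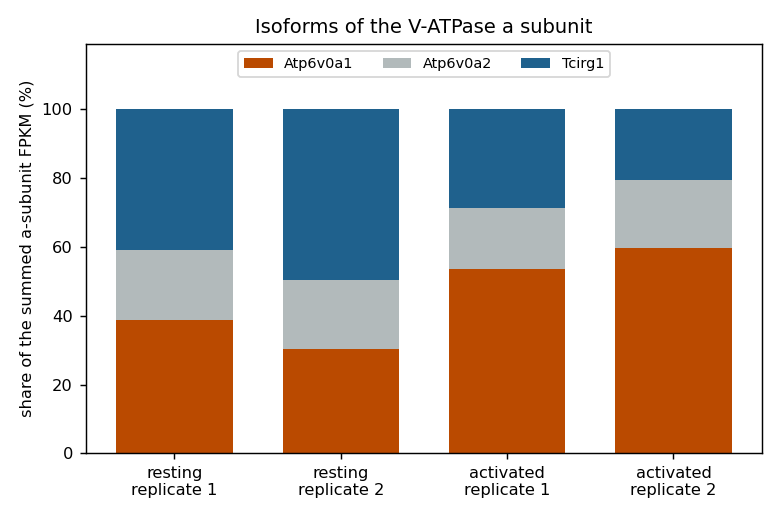
Share in percent of Atp6v0a1, Atp6v0a2 and Tcirg1 in their summed FPKM, 1 stacked bar per RNA sample. The Atp6v0a1 share was 30.3% and 38.7% in the resting and 53.6% and 59.6% in the activated samples, without overlap.

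The other V0 subunits gave no call. Atp6v0c, which builds the proton-carrying ring, had 28.5 and 34.2 FPKM in resting and 40.8 and 55.2 FPKM in activated cells, with a limma adjusted p of 0.0502 just past the threshold. It shares its locus with the row Atp6v0c-ps2, which had 4.29 FPKM in activated replicate 1 and under 0.001 FPKM in the other samples, so the division of reads between these rows is uncertain. Atp6v0b, another ring subunit, had 43.7 and 58.8 FPKM in resting and 36.9 and 35.9 FPKM in activated cells, with a limma adjusted p of 0.0870. Atp6v0e, a small membrane subunit, had the highest level of the pump genes in resting cells, with 87.2 and 129.3 FPKM in resting and 72.3 and 81.3 FPKM in activated cells, with a limma adjusted p of 0.147. Both were called lower when the samples were scaled to the same sum (limma adjusted p = 0.0212 and 0.0372). Atp6v0d1, which couples the ring to V1, had 34.0 and 38.4 against 37.7 and 39.6 FPKM, and its osteoclast and macrophage counterpart Atp6v0d2 did not exceed 0.0502 FPKM.

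Summed over all 23 rows, the V-ATPase genes had 427.3 and 546.9 FPKM in resting and 492.9 and 521.8 FPKM in activated cells, so the activated sums lay between the resting ones. The direction of the pump genes depended on scaling. Their median log2 difference of 0.10 became -0.01 with samples scaled to the same sum (4 rises, 3 falls) and -0.08 with quantile normalization (2 rises, 3 falls). Scaling to the sum without hemoglobin and small nucleolar RNA rows, an alternative chosen after seeing the data, gave -0.04 (2 rises, 3 falls). Of the 3 rises, those of Atp6v1a and Atp6v0a1 held in all 3 of these scalings.

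Of 14 genes of V-ATPase assembly and regulation outside the naming rule, 12 were tested. Of these 2 rose (background 28.2% of all tested genes) and 3 fell (background 26.2%), neither more often than over all tested genes. Rogdi, a component of the RAVE-like complex that reassembles V1 with V0, had 31.6 and 36.0 FPKM in resting and 7.44 and 6.47 FPKM in activated cells, with a limma adjusted p of 0.000131. Dmxl1, a scaffold of the same complex, had 20.3 and 21.0 against 8.75 and 9.48 FPKM (limma adjusted p = 0.00113). The accessory subunit Atp6ap2, also known as the prorenin receptor, had 18.6 and 23.9 against 33.4 and 48.6 FPKM (limma adjusted p = 0.0159), whereas Atp6ap1 had 68.6 and 78.3 against 41.6 and 47.0 FPKM (limma adjusted p = 0.0165). The accessory subunits thus moved in opposite directions.

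Cathepsins were the family with the most falls, and 7 of 10 tested genes fell (70%, against a background of 26.2%). Of 19 macrophage markers 17 also fell, among them the 7 defining ones, which were tested through their resting values alone. The part of macrophage RNA in the cathepsin falls was not tested. The summed level of the 18 cathepsin rows was 878.7 and 998.6 FPKM in resting and 573.3 and 486.3 FPKM in activated cells, a ratio of means of 0.564. Ctsb, Ctsa, Ctse and Ctso were called under each alternative setting that tested them, with each sample left out in turn as well. Ctsc, Ctsh and Ctss were not called without resting replicate 1 (limma adjusted p = 0.0864, 0.113 and 0.0867) or resting replicate 2 (0.148, 0.146 and 0.109).

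Among the cysteine cathepsins with endopeptidase activity, Ctss had the highest level. It encodes cathepsin S, which removes the invariant chain from MHC class II molecules in B cells. Its values were 320.2 and 366.5 FPKM in resting and 183.8 and 121.6 FPKM in activated cells. The lower resting sample was thus well above the higher activated one, and the log2 difference was -1.19 ± 0.27 (SE; limma adjusted p = 0.01001). Ctss was above every other protease of the family in resting cells, at 36.4% and 36.7% of the cathepsin sum. In activated cells its share was 32.1% and 25.0%, and in activated replicate 2 it was below that of Ctsz.

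Ctsb (chr14:63741298-63764760), a protease of broad specificity, had 66.1 and 87.9 FPKM in resting and 21.0 and 20.6 FPKM in activated cells. It fell by 1.82 on the log2 scale (SE 0.20, limma adjusted p = 0.000517), and the activated replicates were nearly equal. Ctso (chr3:81736537-81760647), a cysteine cathepsin of little-known function, had 47.9 and 39.8 FPKM in resting and 13.2 and 7.83 FPKM in activated cells. It fell by 1.998 on the log2 scale (SE 0.25, limma adjusted p = 0.000908), the largest fall of the tested members. Ctso was also the tested cathepsin that was lower in resting replicate 2 than in replicate 1. Ctsl, the endopeptidase of thymic epithelium and macrophages, was low and overlapped, at 3.48 and 4.93 in resting and 5.17 and 2.76 FPKM in activated cells.

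Cathepsins that trim from the ends of proteins split. Ctsc, or dipeptidyl peptidase 1, which activates granule proteases of killer and myeloid cells, had 86.5 and 102.5 FPKM in resting and 55.3 and 59.3 FPKM in activated cells (log2 difference -0.71 ± 0.19 SE, limma adjusted p = 0.0197). Ctsh, an aminopeptidase, had 102.9 and 118.5 against 66.9 and 39.3 FPKM (log2 difference -1.09 ± 0.28 SE, limma adjusted p = 0.0158). Ctsz, a carboxypeptidase, did not pass, with 141.6 and 144.1 FPKM in resting and 148.7 and 155.6 FPKM in activated cells, with a limma adjusted p of 0.720. Its sign turned with scaling. Its share of the cathepsin sum was 16.1% and 14.4% in resting and 25.9% and 32.0% in activated cells.

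The serine and aspartic cathepsins also split. Ctsa, a serine carboxypeptidase that protects lysosomal galactosidase and neuraminidase, had 32.6 and 37.3 FPKM in resting and 15.2 and 11.98 FPKM in activated cells (log2 difference -1.31 ± 0.18 SE, limma adjusted p = 0.00132). Ctse, an aspartic protease of endosomes in immune cells, had 11.8 and 16.4 against 4.01 and 3.84 FPKM (log2 difference -1.60 ± 0.19 SE, limma adjusted p = 0.000719). Ctsd, the main aspartic protease of lysosomes, had 64.4 and 78.3 FPKM in resting and 59.8 and 63.4 FPKM in activated cells. The activated samples lay just under the resting ones, and the difference did not pass (log2 difference -0.20 ± 0.19 SE, limma adjusted p = 0.399).

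Cathepsins of other lineages were at or near 0. Ctsj, Ctsm, Ctsq and Ctsr, placental genes that lie together on chr13, were listed at 0 in all samples. Ctsg, of neutrophil granules, reached 0.0696 FPKM in resting replicate 2 and was listed at 0 elsewhere. Ctsw, of cytotoxic lymphocytes, reached 0.215 and 0.931 FPKM in resting cells and stood at 0 in both activated samples. Ctsk, the collagenase of osteoclasts, had 0.608 and 0.622 FPKM in resting and 0.301 and 0.187 FPKM in activated cells, and Ctsf did not exceed 0.680 FPKM.

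The LAMP genes went different ways. Lamp1, a major glycoprotein of the lysosomal membrane, had 67.8 and 78.2 FPKM in resting and 65.2 and 54.3 FPKM in activated cells, with a limma adjusted p of 0.252. Lamp2, its paralog, which also acts in autophagy, had 29.2 and 39.7 FPKM in resting and 61.6 and 49.0 FPKM in activated cells. It rose, with a log2 difference of 0.67 ± 0.22 (SE) and a limma adjusted p of 0.0382, and the groups did not overlap. Lamp2 was not called without resting replicate 1 (limma adjusted p = 0.266), resting replicate 2 (0.0825) or activated replicate 1 (0.121), nor with quantile normalization (0.102) or with no filter (0.0781). Lamp3, the LAMP of mature dendritic cells, had 1.33 and 1.31 FPKM in resting and 0.124 and 0.156 FPKM in activated cells. It fell by 1.03 on the scale of log2(FPKM + 1) (SE 0.13, limma adjusted p = 0.00114), a scale that understates changes at such low levels. Lamp3 was tested only because its resting values passed the filter of 1 FPKM, so the filter itself favoured a fall, and the call adds no support to the count of falls. All 5 tested dendritic cell markers also fell (background 26.2% of tested genes), from sums of 27.4 and 28.8 FPKM in resting to 1.54 and 0.5498 FPKM in activated cells. In activated replicate 2 their sum was under 1 FPKM, so none could pass the filter without a resting value. The filter thus favoured these falls too. The part of dendritic cell RNA in the level of Lamp3 was not tested. Lamp5 was listed at 0.

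Other lysosomal genes, from lists set with earlier results of these data known, were called lower more often than higher. Of 37 other lysosomal hydrolases 21 fell and 6 rose (median log2 difference -0.73), where 26.2% of all tested genes fell and 28.2% rose, the background for the lists that follow as well. Acp5, the tartrate-resistant phosphatase of macrophages and osteoclasts, had 115.8 and 135.9 FPKM in resting and 9.62 and 7.17 FPKM in activated cells, with a limma adjusted p of 5.65e-05. Of 25 other lysosomal membrane genes 10 fell and 3 rose. Their summed level went the other way, with 751.5 and 809.0 FPKM in resting and 1201.7 and 969.5 FPKM in activated cells. Cd68, a macrophage relative of the LAMP proteins, had 24.5 and 23.7 against 3.21 and 4.49 FPKM (limma adjusted p = 0.000131).

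The genes that deliver and control these proteins were mixed. Of 14 genes of mannose 6-phosphate tagging and lysosomal sorting 7 fell and 3 rose. Gga2, an adaptor that loads hydrolases into vesicles at the Golgi, had 52.7 and 53.8 FPKM in resting and 10.9 and 11.1 FPKM in activated cells, with a limma adjusted p of 0.000103. Igf2r, the large mannose 6-phosphate receptor that carries hydrolases, had 2.96 and 2.87 against 9.19 and 11.3 FPKM (limma adjusted p = 0.000549). Of 15 tested genes of the TFEB family and of mTORC1 at the lysosome none rose (background 28.2%) and 2 fell (background 26.2%), Flcn and Lamtor2 (limma adjusted p = 0.0176 and 0.0376). Of the natural cathepsin inhibitors, the secreted cystatin Cst3 had 271.2 and 434.4 FPKM in resting and 86.7 and 84.5 FPKM in activated cells, with a limma adjusted p of 0.00137. The cytosolic inhibitor Cstb had 27.1 and 38.3 against 58.5 and 47.8 FPKM (limma adjusted p = 0.0358).

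The loci were then set beside the peak lists of activated cells, each locus widened by 2 kb. FAIRE marks open chromatin, STARR marks fragments with enhancer activity in a plasmid, H3K4me3 marks active promoters, and H3K27ac marks active promoters and enhancers. All 28 tested members had a FAIRE peak, against 93.3% of tested genes. A STARR peak lay at 19 of 28 (67.9% against 62.4%), H3K27ac at 25 (89.3% against 89.8%) and H3K4me3 at 26 (92.9% against 91.1%). These shares were close to those of all tested genes. No member lay at a super-enhancer, as did 0.488% of tested genes. There is 1 list per assay and none of resting cells is used here, so a peak says nothing of a change with activation.

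Members that fell carried the marks as did those that rose. Of the 9 that fell, 8 had H3K27ac, 8 had H3K4me3 and 6 had a STARR peak, and of the 4 that rose, 4, 4 and 3 did. Lamp3, the member that fell to the lowest level, had neither mark and 1 FAIRE peak inside its locus. That peak lay 39.8 kb from the high-coordinate end of the locus, which is the start of this minus-strand gene. Atp6v1d also lacked both marks at a mean of 28.5 FPKM in activated cells, and Ctsl lacked H3K27ac. Among the 17 members that were not tested, 5 had a FAIRE peak, 3 had H3K4me3 and 2 had H3K27ac. Of these, Atp6v0c-ps2 shares its locus and its peaks with Atp6v0c. Pdia6 lies within 2 kb of Atp6v1c2, which had H3K4me3, so the marks at Atp6v0c-ps2 and Atp6v1c2 cannot be assigned to these untested members. Atp6v1b1 had an H3K4me3 peak and Atp6v0d2 an H3K27ac peak, each with no other row within 2 kb. The 4 placental cathepsins and Ctsg, Ctsf, Ctsk and Ctsw had no peak of any kind.

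**Figure D5:**
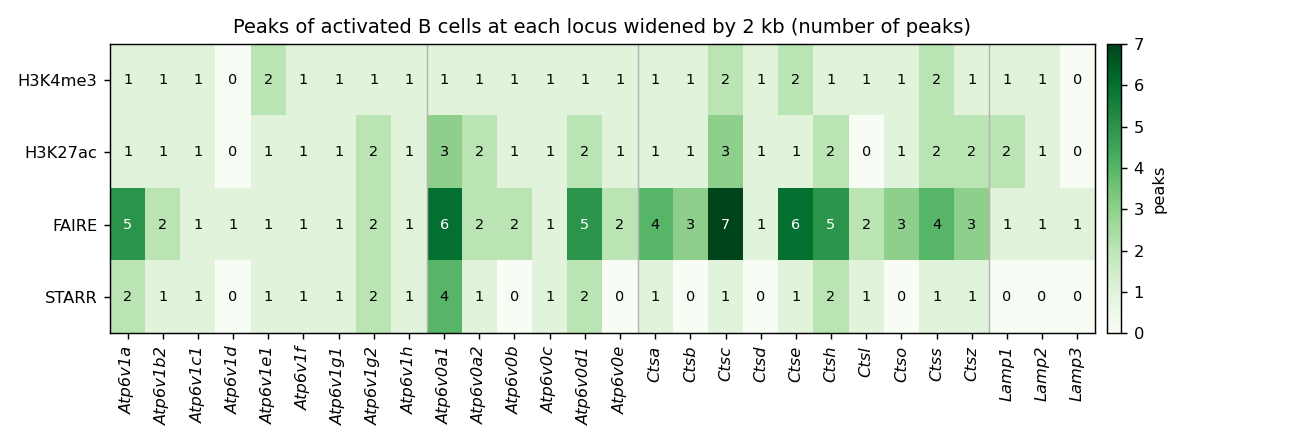
Number of H3K4me3, H3K27ac, FAIRE and STARR peaks of activated cells at each tested member's locus widened by 2 kb, with darker green for more peaks. Ctsc had 7 FAIRE peaks, Atp6v0a1 had 4 STARR peaks, and Atp6v1d and Lamp3 had neither histone mark.

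Atp6v0a1, the pump gene of largest rise, had the most STARR peaks of the members, 4, each inside the list of STARR peaks in open chromatin. Of these, 3 lay from 1.12 kb before to the start of its locus, at chr11:100869493-100869793, chr11:100870043-100870343 and chr11:100870578-100870877. The other lay inside the gene, 48.6 kb from that start, at chr11:100919239-100919538. An H3K27ac peak of 1963 bp and an H3K4me3 peak of 3059 bp covered the start. Atp6v1a had 2 STARR peaks, 0.28 and 1.67 kb beyond the high-coordinate end of its locus, which is the start of this minus-strand gene. Naa50 also lies within 2 kb of the locus, so the peaks cannot be assigned to either gene. They were at chr16:44139258-44139558 and chr16:44140652-44140951, both under H3K27ac and H3K4me3.

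The cathepsin loci differed in whether they held activity inside the gene. At Ctsh (chr9:89949104-89970933) a STARR peak at chr9:89955280-89955580, 6.33 kb into the locus, lay in a FAIRE-supported H3K27ac peak at chr9:89953974-89957060 that carried no H3K4me3. A further STARR peak lay 0.97 kb beyond the end of the locus. At Ctss (chr3:95330707-95360325) the STARR peak lay at the start, chr3:95330525-95330825. A second H3K27ac peak with a FAIRE peak, at chr3:95344795-95346083, lay inside the gene and had no STARR peak. Ctsk, which ends 17.4 kb before Ctss begins, had no peak in any of the lists and stayed under 1 FPKM in each sample. Ctsb and Ctso had H3K27ac, H3K4me3 and 3 FAIRE peaks each but no STARR peak.

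Hi-C contacts of activated cells came from the submitters' list of filtered enhancer-promoter interactions. Far ends with a STARR peak may be favoured by that filter, and their share over all contacts was not computed. A contact was counted for a member when either end overlapped its locus, at the promoter or elsewhere. Atp6v0c and Atp6v0c-ps2 therefore share the same contacts. Contacts were listed for 22 of 45 members and for 20 of 28 tested ones. That was 71.4% against 79.0% of tested genes, with a median of 3 contacts in both. The list holds overlapping far ends at several bin sizes, so contacts are more numerous than the separate regions they reach. Atp6v1g2 had the most, 25, from a locus of 2172 bp that H3K27ac peaks of 7738 bp in all overlapped when it was widened by 2 kb. Their far ends merged into 17 regions. Atp6v0a1 had 9, of which the contact with the highest read count (34 reads) reached 26.8 kb to a region with a STARR peak. Ctss had 5, at 98.1 to 329.3 kb, and their far ends merged into 3 regions, 2 of them with a STARR peak. Ctso, Ctse, Atp6v1f, Atp6v1g1, Atp6v1h and the LAMP genes had none. Contacts come from pooled replicates, so no spread can be given.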

How the data were processed

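RNA values came from 1 table of 4 samples, and the members and lists were chosen with earlier results of these data known. The submitters' processing notes list STAR, TopHat2, Bowtie, Bowtie2, HOMER and bedtools and the build mm9, without roles or versions. The deposited RNA values carry no unit and were treated as FPKM, because they are not whole and their sums differ (244602 to 287884). Read totals are not given in the sources used here, so the depth is unknown. Genes with at least 1 FPKM in 2 samples entered limma 3.58.1 (R 4.3.3, options trend and robust) on log2(FPKM + 1), and the same genes were kept when a sample was left out. Every member could be named, and of each other list up to the 4 called genes with the largest difference. Each Hi-C contact has a read count over pooled replicates and a score, the authors' z-score, both as deposited and per the file headers. Neither was used here as a further filter on the submitters' filtered list. Duplicate peaks were removed, any overlap counted, and peaks are printed 1-based on mm9, with no score or replicate per list. No genome of that build was used here, so no peak sequence is shown. Promoter letters come from RefSeq (GRCm38.p6). Nascent RNA, H3K4me1 and resting ChIP-seq were not analysed here. Alternatives were other pseudocounts, filters and scalings, a replicate block, leaving out each sample, and other windows for peaks and contacts.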

Additional observations from a re-analysis of the deposited data

How the results depend on the processing

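Depth is unknown for the RNA values, and with 2 samples per group 1 sample decides several calls. Of 13 called members 9 kept their call in the 9 settings that keep all 4 samples. Lamp2 and Atp6v1h lost theirs, and Atp6v1g2 and Lamp3 were not tested under the filter of 5 FPKM. Ctsa, Ctsb, Ctse and Ctso kept it in every setting. Lamp3 kept it in those that tested it, all of which it entered through its resting values alone or with no filter. No called member changed sign. A further 5 members were called in some settings (Atp6v0b, Atp6v0c, Atp6v0e, Ctsd and Lamp1). Members called higher numbered 4, and 2 with no filter on low values or with quantile normalization. When a sample was left out, the remaining sample of its group was assumed to vary like the other group. Members called higher then ranged from 1 to 3 and members called lower from 5 to 9. Over all tested genes 1105 to 3191 were called higher and 1244 to 2832 lower, against 3066 and 2844, with the lowest counts without a resting sample. Peak and contact counts stayed within 1.5 times under each alternative run. The cause of these changes was not tested.

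A replicate block gave 5 members higher and 9 lower, and 3317 genes higher and 2964 lower. It added Atp6v0c (limma adjusted p = 0.0135) and changed no other call of a member. The labels pair no samples. Deviations of the samples numbered 1 had a Pearson r of 0.124 across 10863 genes, which are not independent replicates.

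Uncalled members near 0 changed sign. Scaling to the same sum gave log2 differences of -0.0788 (Atp6v1b2), -0.0111 (Atp6v1d), -0.0291 (Atp6v1f), -0.00558 (Atp6v0d1) and -0.0130 (Ctsz). Quantile normalization gave -0.172, -0.0818, -0.182, -0.104 and -0.0265 for the same genes in that order. Scaling to the sum without hemoglobin and small nucleolar RNA rows, added after seeing the data, gave -0.116, -0.0478, -0.0666, -0.0426 and -0.0507. Leaving out samples gave -0.141 to 0.184 for Atp6v1b2, -0.142 to 0.319 for Atp6v1d, -0.0446 to 0.191 for Atp6v1f and -0.455 to 0.259 for Ctsl.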
